A study of Mus musculus with 2 samples.

Results

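T cells were found among the barcodes that the depositors had removed from 2 single-cell libraries of sorted colonic B cells. A barcode stands for 1 droplet, normally holding 1 cell, and its transcripts are counted by unique molecular identifiers (UMIs). T cells were chosen by their measured counts: a barcode was taken where it was absent from the deposited log-normalized table and had 5 or more UMIs summed over 15 T cell genes (Cd3e, Cd3d, Cd3g, Trac, Trbc1, Trbc2, Cd4, Cd8a, Cd8b1, Lat, Cd28, Bcl11b, Themis, Icos and Cd5). This gave 107 T cells of 8156 barcodes, 48 of 4780 at day 14 and 59 of 3376 at day 0. The comparison cells are the barcodes that were retained in the log-normalized tables and are called kept cells here, 4692 at day 14 and 3290 at day 0.

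Both libraries were made from colon lamina propria lymphocytes of female C57BL/6J mice, sorted for B cells and run on the 3′ version 2 chemistry of the 10x Chromium platform. The day 14 mice had received 2% dextran sulfate sodium (DSS), a polysaccharide that injures the colonic epithelium, in drinking water for 7 days and then recovered for 7 days. The day 0 mice were untreated controls according to the protocols, although the treatment tag of both samples reads DSS. Each day is 1 library, and neither the ages nor the number of mice behind it is stated in those sources, so no difference between days has a replicate check and none was tested. All intervals are exact 95% intervals of counting error only. Because the sort was set for B cells, the share of T cells describes what passed the sort, not the tissue.

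T cells recognise antigen through a receptor made, in most of them, of an alpha and a beta chain, whose constant parts are encoded by Trac and by Trbc1 or Trbc2, and which signals through the CD3 chains. Helper and regulatory T cells carry the CD4 co-receptor, whereas cytotoxic precursors and effectors carry CD8, an alpha-beta (Cd8a, Cd8b1) or alpha-alpha dimer. Naive and central memory cells are recognised by Lef1, Tcf7, Ccr7 and Il7r, and effector or memory cells by granzymes, perforin, Nkg7 and the chemokine Ccl5. In the mouse gut, resident and intraepithelial T cells include CD8 cells and gamma-delta T cells and often express the integrin alpha E gene Itgae.

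In depth and quality the T cells lay within the range of the kept cells. They had a median of 2991 UMIs (922 to 6833) at day 14 and 3292 (962 to 8749) at day 0, against 2241.5 and 2278.5 in kept cells of the same days. The median share of mitochondrial UMIs was 3.24% at day 14 and 3.12% at day 0, and all 107 T cells lay within the range of kept cells for UMIs, genes and mitochondrial share. T cells made up 48 of the 88 removed barcodes at day 14 (54.5%, interval 43.6 to 65.2%) and 59 of 86 at day 0 (68.6%, 57.7 to 78.2%). As a share of all barcodes they were 1.004% at day 14 (0.741 to 1.33%) and 1.75% at day 0 (1.33 to 2.25%). Of the other 40 and 27 removed barcodes, 13 at day 14 and 11 at day 0 had 10 or more UMIs of epithelial genes, and 11 at day 14 and 1 at day 0 had over 50% mitochondrial UMIs.

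Among removed barcodes, the threshold lay in a gap from 2 to 10 UMIs at day 14 and in a narrow one from 4 to 6 at day 0. The 3 T cells with the fewest UMIs of the 15 genes had 10, 11 and 12 at day 14 and 6, 7 and 7 at day 0. The highest removed barcodes outside the set had 2, 2 and 1 UMIs at day 14 and 4, 2 and 1 at day 0. Among kept cells, 98.1% at day 14 and 97.1% at day 0 had none. Kept cells with 5 or more numbered 1 at day 14 and 5 at day 0, and each of these 6 also had at least 10 UMIs of 8 B cell genes (among them Cd79a, Cd79b, Ms4a1, Cd74 and H2-Aa). The same held for 4688 of 4692 kept cells at day 14 and 3288 of 3290 at day 0, so it does not set these 6 apart.

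**Figure D1:**
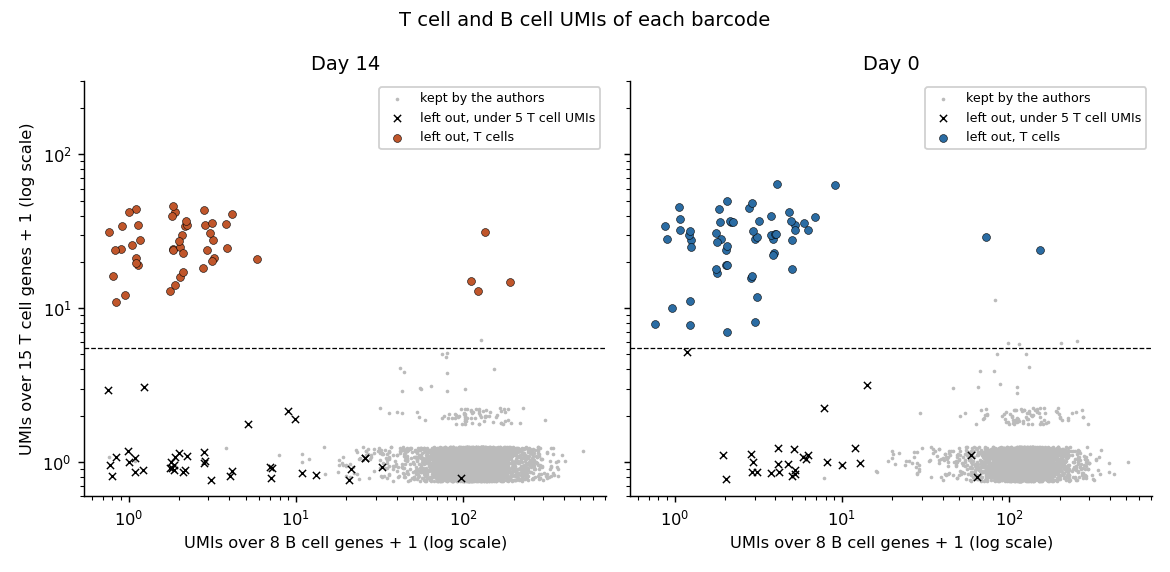
Each point is 1 barcode, with its UMIs over 8 B cell genes on the horizontal axis and over 15 T cell genes on the vertical axis (both plus 1, log scale, with slight jitter), day 14 on the left and day 0 on the right. Coloured T cells lie above the dashed threshold of 5 UMIs, mostly at the left, 6 of them (4 at day 14 and 2 at day 0) at the B cell level of the grey kept cells.

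Of the T cells, 6, written below as the 6 B-rich barcodes, also carried B cell transcripts. The 8 B cell genes summed to 111 to 189 UMIs in 4 of them at day 14 and to 72 and 151 UMIs in the 2 at day 0, while the remaining T cells had at most 5 and 8, and kept cells had medians of 110 and 119. The median depth of the B-rich barcodes was 5653.5 UMIs at day 14 and 4491 at day 0, above that of the T cells as a whole. Whether they hold a T cell and a B cell together was not tested, and results that rest on them are given with and without them. The 2 libraries shared 18 barcode sequences, of which 1 was a T cell at day 0 and 0 at day 14.

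Nearly all T cells were of the CD8 lineage. Cd8b1 (ENSMUSG00000053044; mm10 chr6:71322788-71337494, plus strand), the CD8 beta chain gene, was counted in 46 of 48 T cells at day 14 and 53 of 59 at day 0, with 187 and 264 UMIs, a median of 4 per cell on both days and at most 8 and 13. The alpha chain gene Cd8a (ENSMUSG00000053977; chr6:71373427-71379173, plus strand) was counted in 29 cells at day 14 with 62 UMIs, and in 41 cells at day 0 with 89 UMIs. Kept cells had 1 and 8 UMIs of Cd8b1 and 2 and 3 UMIs of Cd8a. Together, 46 of 48 T cells at day 14 (95.8%, 85.7 to 99.5%) and 55 of 59 at day 0 (93.2%, 83.5 to 98.1%) had a CD8 transcript and no Cd4, compared with 3 of 4692 and 7 of 3290 kept cells. Both CD8 genes belong to the 15 that chose the cells, so these shares are a description of the set.

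Cd4 (ENSMUSG00000023274; chr6:124864692-124888221, minus strand), which also belongs to the 15 genes, was at 0 UMIs in every one of the 107 T cells. A count of 0, with a floor of 3 counts, allows a share of up to 6.25% of T cells with a Cd4 UMI at day 14 and 5.08% at day 0, and the exact intervals end at 7.40% and 6.06%. Kept cells held 6 with a Cd4 UMI at day 14 and 6 at day 0. The other genes of the CD4 helper list, which the choice of cells did not use, were as sparse: Zbtb7b, which directs the CD4 lineage, and Cd40lg, the T cell ligand that helps B cells, had 1 UMI each, both in a single B-rich barcode at day 14 that had no CD8 transcript. No UMI of this list was counted at day 0. Foxp3, which defines regulatory T cells, was at 0 in all T cells of both days.

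Transcripts of the alpha-beta receptor were found in nearly all cells, as the choice by these genes favours. A beta chain constant gene was counted in 48 of 48 T cells at day 14 and 57 of 59 at day 0, Trac in 35 and 48, and at least 1 CD3 gene in 46 and 56. Cd3d had the most UMIs of the CD3 genes, counted in 42 cells at day 14 (172 UMIs) and 55 at day 0 (227 UMIs), followed by Cd3g in 43 (138 UMIs) and 51 (182 UMIs) and Cd3e in 30 (54 UMIs) and 42 (91 UMIs), and each had 12 or fewer UMIs in kept cells of a day. Lat, the adaptor of the receptor, and Bcl11b, which maintains T cell identity, were counted in 35 and 29 cells at day 14 and in 40 and 37 at day 0. Themis, Cd28, Cd5 and Icos were sparser, in 14, 9, 9 and 3 cells at day 14 and 20, 19, 9 and 3 at day 0. Trbc2 had 273 UMIs at day 14 and 330 at day 0, and Trbc1 had 105 and 196. Among cells with at least 3 UMIs of these 2 beta genes, Trbc1 held over 50% of them in 8 of 44 cells at day 14 (18.2%, 8.19 to 32.7%) and in 16 of 54 at day 0 (29.6%, 18.0 to 43.6%), and the intervals overlap. Both beta genes were counted in 24 and 36 cells. The 2 genes are near-identical copies, so reads may be split between them and the assignment is uncertain.

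Gamma-delta constant genes, which were not used to choose the cells, were counted in 0 of 48 T cells at day 14 and 3 of 59 at day 0, with 8 UMIs in all and none in kept cells. In 1 of these day 0 cells the gamma constant gene Tcrg-C2 had 5 UMIs, next to Trbc1 at 2, Trbc2 at 8, Cd8b1 at 4, Trac at 0, Ccl5 at 156 and Gzma at 10. That cell carried all 10 UMIs of Gzma (ENSMUSG00000023132; chr13:113093825-113100981, minus strand), the granzyme A gene, found in the T cells. At day 14 Gzma was at 0 in all 48.

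CD8 transcripts were lacking in 6 T cells, which were unlike each other. At day 14 these were the B-rich barcode with Cd40lg and 1 cell with 18 UMIs of Ctla2a, 15 of Areg, 13 of Crem, 8 of Icos, 4 of Il2ra and 1 each of Gata3, Il1rl1 and Il5, with Trbc1 at 7, Trbc2 at 5 and every CD3 gene and Trac at 0. Areg encodes the epithelial growth factor amphiregulin, and Gata3, Il1rl1 and Il5 are genes of type 2 lymphocytes. All 20 UMIs of the 15 genes in this cell were of Trbc1, Trbc2 and Icos. It is counted as a T cell by the rule only, and whether it is one was not tested. At day 0 these were 2 cells with 50 and 169 UMIs of Ccl5, 1 cell with 4 UMIs of Cxcr6, 1 UMI of a gamma-delta gene and no CD3 gene, and 1 cell with all 3 of these CD3 genes, Trac at 3 and Trbc2 at 8.

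**Figure D2:**
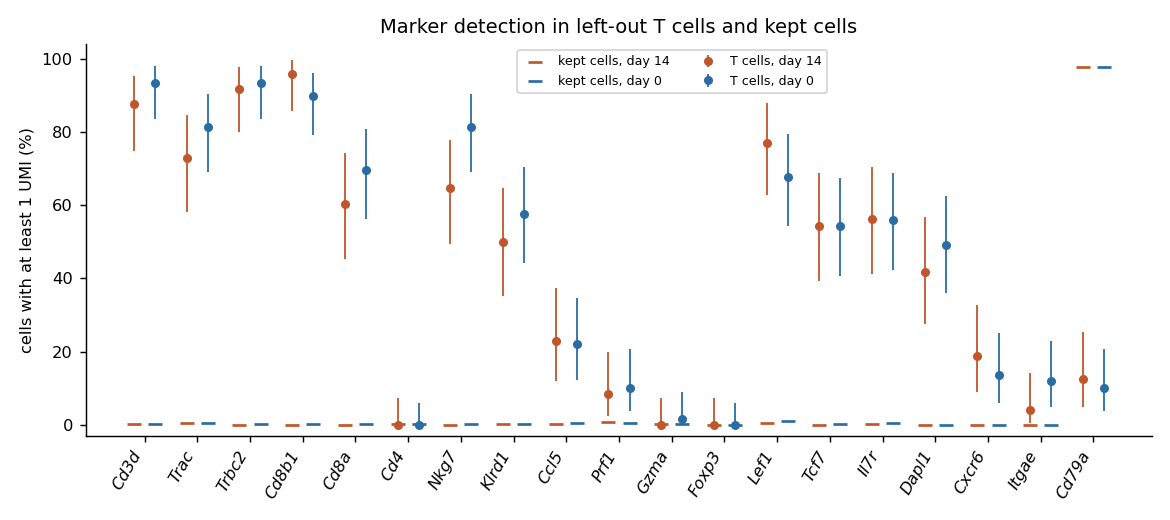
Share of T cells with at least 1 UMI of each gene (points, with exact 95% intervals) beside the share of kept cells (dashes), day 14 left of day 0 for each gene, in percent. Cd8b1 was counted in 46 and 53 T cells, Cd4 and Foxp3 in 0, and Cd79a, a B cell gene, in nearly all kept cells and 6 T cells on each day.

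Cytotoxic genes were counted, with few granzyme UMIs. Nkg7 (ENSMUSG00000004612; chr7:43437073-43438249, plus strand), a granule membrane protein gene of cytotoxic lymphocytes, was counted in 31 T cells at day 14 with 102 UMIs, and in 48 at day 0 with 173 UMIs, against 0 and 4 UMIs in kept cells. Klrd1, the CD94 receptor chain gene, followed in 24 cells (42 UMIs) at day 14 and 34 cells (62 UMIs) at day 0, and Ctsw, the cathepsin W gene, in 18 cells (34 UMIs) and 25 cells (33 UMIs). The 4 granzyme genes (Gzma, Gzmb, Gzmk and Gzmm) and Prf1, the perforin gene, together gave 13 UMIs over 8 cells of day 14 and 20 UMIs over 9 cells of day 0. Prf1 had 4 and 6 UMIs, never more than 1 in a cell.

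At least 2 UMIs over Gzma, Gzmb, Gzmk, Nkg7 and Prf1 were counted in 26 of 48 T cells at day 14 (54.2%, 39.2 to 68.6%) and 37 of 59 at day 0 (62.7%, 49.1 to 75.0%). The same genes reached 2 UMIs in 5 of 4692 and 1 of 3290 kept cells. The intervals of the days overlap. Without Nkg7, only 5 of 48 (10.4%) and 8 of 59 T cells (13.6%) had even 1 UMI of the other 4 genes. Summed over the 14 genes of the cytotoxic list, levels were 3019 counts per 1000000 UMIs (CPM) at day 14, against 4681 CPM at day 0, for a ratio of 0.645 (0.575 to 0.722). Ccl5 alone made up 258 of 466 and 574 of 885 of these UMIs, and without it the list stood at 1347 and 1645 CPM, a ratio of 0.819 (0.684 to 0.979).

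Most T cells carried genes of naive and central memory cells. The list of 10 such genes had at least 5 UMIs in 43 of 48 T cells at day 14 and 52 of 59 at day 0. B cells express several of these genes: 2223 of 4692 and 1963 of 3290 kept cells also reached 5 UMIs, so the T cell members of the list are given singly.
Lef1, a transcription factor gene of naive T cells, was counted in 37 T cells at day 14 (66 UMIs) and in 40 at day 0 (98 UMIs), with 23 and 33 UMIs in all kept cells. Tcf7, its relative, had 39 UMIs in 26 cells and 55 in 32, with 1 and 8 in kept cells. Il7r, the interleukin 7 receptor gene, had 62 UMIs in 27 cells and 68 in 33. Dapl1 was the most concentrated, with 70 UMIs in 20 T cells at day 14 and 130 in 29 at day 0, up to 9 and 13 in a cell, against 1 and 0 UMIs in kept cells. Igfbp4 had 25 UMIs in 12 cells at day 14 and 27 in 20 at day 0. The lymph node homing gene Ccr7 was also well counted in kept cells. It had 279 CPM in T cells at day 14 and 153 at day 0, against 708 and 930 in kept cells.

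Between days, the naive and central memory list was at 3181 CPM in day 14 T cells and 3882 CPM in day 0 T cells, for a ratio of 0.819 (0.729 to 0.920). None of its 10 genes was 2-fold or more apart. Of all 1884 genes tested, 2.76% were 2-fold or more higher at day 14 and 3.45% lower. The absence of calls between days in a short list, here or below, is therefore near the share over all genes. Satb1, a chromatin organizer gene, was at 194 CPM at day 14 and 349 at day 0 (0.557, 0.349 to 0.869), Dapl1 at 453 and 688 (0.659, 0.486 to 0.889), and Ccr7 at 279 and 153 (1.82, 1.11 to 3.02). Il7r and Igfbp4 had ratios of 1.12 (0.779 to 1.60) and 1.13 (0.631 to 2.03). In kept cells the same list also had a ratio of 0.819 (0.804 to 0.835). Klf2, the list gene with the most UMIs in T cells (89 at day 14 and 150 at day 0), was abundant in both sets. Its ratio was 0.727 (0.553 to 0.951) in T cells and 0.739 (0.715 to 0.763) in kept cells. Lef1, Tcf7, Dapl1, Il7r and Igfbp4 together had only 51 and 59 UMIs in kept cells.

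Several genes of tissue residency were thin, whereas Itgb7, a gene of the same list, was counted in more cells. Itgb7 had 35 UMIs in 23 T cells at day 14 and 50 in 30 at day 0, at 4.91-fold and 4.12-fold the level of kept cells. Cxcr6, a chemokine receptor gene of resident T cells, had 15 UMIs in 9 T cells at day 14 and 18 in 8 at day 0, and none in any kept cell. Itgae had 2 UMIs in 2 cells and 9 in 7, Cd160 7 in 6 and 4 in 4, and Ccr9, the small-intestine homing receptor gene, 10 in 7 and 14 in 11. The list of 12 residency and intraepithelial genes stood at 648 CPM at day 14 and 825 at day 0 (0.785, 0.605 to 1.02), and of its 4 genes with at least 20 UMIs none was 2-fold apart. Cd69, an early activation and retention gene, was at 136 and 249 CPM (0.547, 0.311 to 0.934). Checkpoint genes had 8 UMIs in 7 cells at day 14 and 11 in 7 at day 0. The dividing-cell genes Mki67 and Top2a had 0 and 1 UMIs at day 14 and 0 each at day 0, and Ifng, the interferon gamma gene, was at 0 in all 107 T cells.

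Ccl5 (ENSMUSG00000035042; chr11:83525778-83530518, minus strand), which encodes a chemokine stored by memory and effector CD8 T cells, divided the T cells. It was not among the genes that chose them. At least 5 UMIs were found in 9 of 48 T cells at day 14 (18.8%, 8.95 to 32.6%), where the counts ran from 11 to 75 with a median of 21, and in 12 of 59 at day 0 (20.3%, 10.98 to 32.8%), where they ran from 7 to 169 with a median of 18. No T cell had between 3 and 6 UMIs, 3 had 1 or 2, and 0 of 7982 kept cells reached 5. The value of 5 was set after these counts were seen. The shares of the days overlap widely, and the summed level of Ccl5 at day 14 (1671 CPM, against 3036 at day 0; ratio 0.550, 0.473 to 0.639) was carried by few cells: the top 2 Ccl5-high cells held 108 of 255 UMIs at day 14 and 325 of 573 at day 0.

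The 21 Ccl5-high cells were set beside the other 86 T cells over both days; since the division uses the same cells, these differences are described and not tested. Ccl5-high cells had more UMIs, with a median of 4607 against 2830 in the others at day 14 and 3674 against 3174 at day 0. Counts of cells with a gene are not matched for this depth. Of 1883 genes, 77 were 2-fold or more higher and 153 lower in Ccl5-high cells. Il2rb, the interleukin 2 and 15 receptor beta chain gene, had 22 UMIs in 12 of 21 Ccl5-high cells and 8 UMIs in 6 of 86 others, a 9.23-fold difference in level (3.96 to 24.0). Ly6c2 had 104 UMIs in 16 cells against 73 in 25 (4.78-fold, 3.51 to 6.54), and S100a6 42 in 9 against 26 in 5 (5.42-fold, 3.25 to 9.21). Cxcr3, the receptor for interferon-induced chemokines, was counted in 9 of 21 and 3 of 86 cells, with 12 and 3 UMIs. Il2rb, Ly6c2 and Cxcr3 are known from memory CD8 T cells of the mouse. Itgb1, Ctla2a and Ahnak were higher in the same direction, at 7.67-fold, 4.43-fold and 4.58-fold.

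Nkg7 was found in all 21 Ccl5-high cells and in 58 of 86 others, and its level was 2.11-fold higher (1.64 to 2.70). Il7r was 2.17-fold higher (1.49 to 3.12), while Tcf7 (1.03, 0.606 to 1.67) and Ccr7 (0.810, 0.417 to 1.47) had intervals that include 1. Lef1 and Dapl1 were lower, at 0.576 (0.357 to 0.892) and 0.502 (0.319 to 0.760). Igfbp4 had 0 UMIs in Ccl5-high cells and 52 in 32 of the others, which is at least 5.16-fold lower with a floor of 3 counts over the 21 cells. Rgcc had 1 UMI against 43, Ramp1 0 against 28 and Ccr9 0 against 24. The naive and central memory list as a whole was at 3159 CPM in Ccl5-high cells and 3688 in the others (0.857, 0.742 to 0.986). Of its 10 genes, 1 was 2-fold or more lower, beside 153 of all 1883 genes, so this count is near the share over all genes. A CD8 transcript was counted in 9 of 9 Ccl5-high cells at day 14 and 10 of 12 at day 0, and in 37 of 39 and 45 of 47 of the others.

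**Figure D3:**
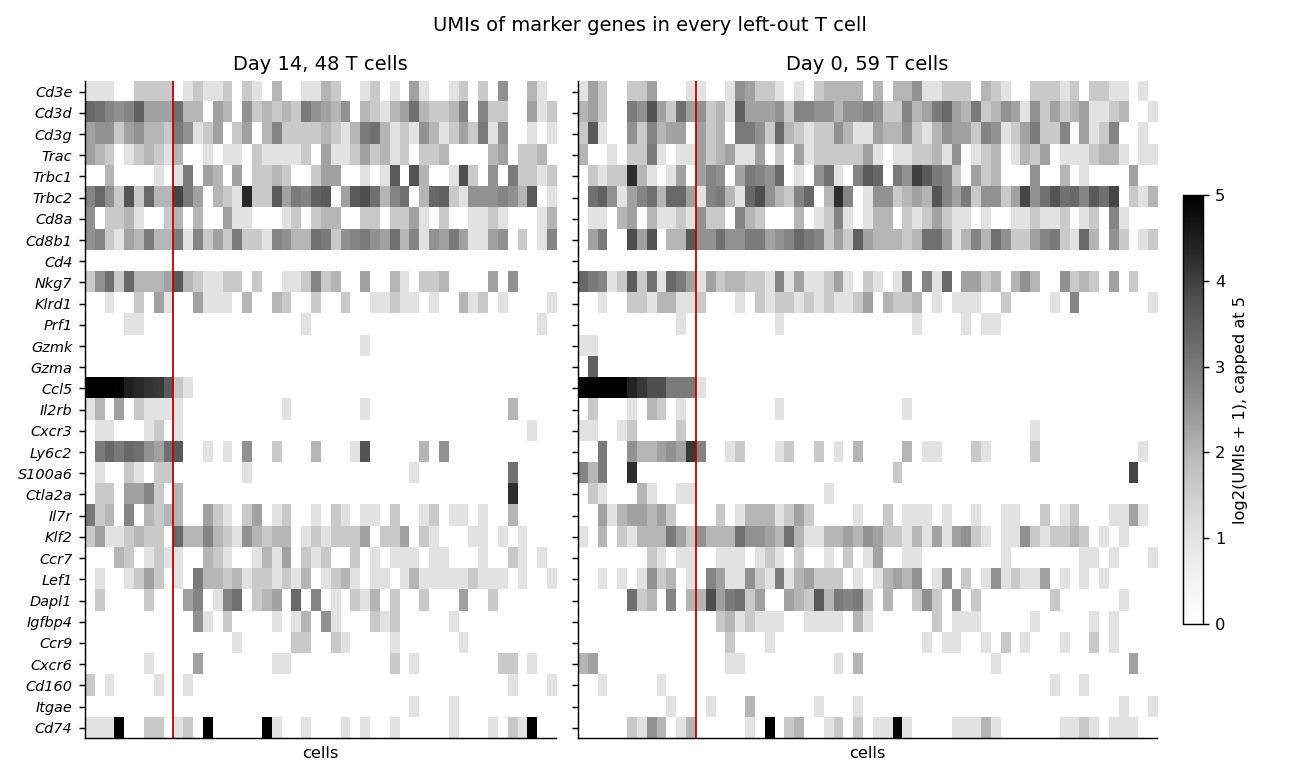
UMIs of marker genes in every T cell, as log2(UMIs + 1) with a cap at 5, day 14 (48 cells) left of day 0 (59 cells). Cells are ordered by Ccl5 and then by UMIs of the naive and central memory list, and the red line ends the 9 and 12 Ccl5-high cells; the Cd4 row is empty, and dark Cd74 cells are the 6 B-rich barcodes.

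**Figure D4:**
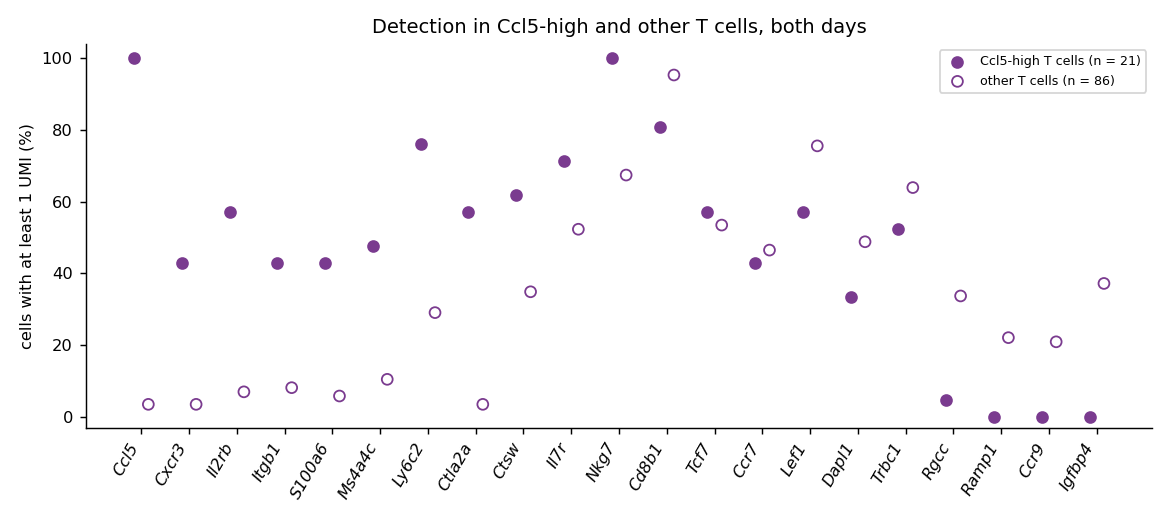
Share of Ccl5-high T cells (filled, n = 21) and other T cells (open, n = 86) of both days with at least 1 UMI of each gene, in percent. Il2rb was counted in 12 and 6 cells and Igfbp4 in 0 and 32, while Tcf7 had a level ratio of 1.03. The shares are not matched for depth, which was higher in Ccl5-high cells.

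T cells were then set beside kept cells over all genes. Among 1884 genes with at least 20 UMIs over all T cells, 253 (13.4%) were 2-fold or more higher in T cells than in kept cells in both libraries and 90 (4.78%) were lower; the filter reads the T cells, so genes that only B cells express are under-represented on the lower side. The 253 include 13 of the 15 genes that chose the cells; the genes named next are not among these 15. Of the 253, 75 were at least 10-fold higher and 10 had no UMI in kept cells. Thy1, a surface glycoprotein gene of mouse T cells, stood at 648 CPM in T cells at day 14 and 603 at day 0, against 0.431 and 0.124 in kept cells. Cd247, the CD3 zeta chain gene, stood at 149 and 217, against 0.172 and 0. Prkcq, the protein kinase C theta gene, had 19 and 23 UMIs in T cells and 0 in kept cells, at least 476-fold and 328-fold higher with a floor of 3 counts per library. Cst7, Cxcr6, Nsg2, Art2b, Lcn4, Tdrp and Sh2d1a were likewise at 0 in kept cells, with 9 to 18 UMIs in T cells of each day.

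B cell genes were lower in T cells. Cd74, the invariant chain of MHC class II, stood at 2086 CPM in T cells at day 14 and 788 at day 0, against 26636 and 27961 in kept cells. Cd79a, a signalling chain of the B cell receptor, stood at 181 and 63.5, against 2222 and 2168. Most of what remained of them sat in the B-rich barcodes: the mature B list stood at 1021 CPM at day 14 and 1341 at day 0 without these, against 5480 and 2698 with them and 72388 and 84867 in kept cells. The marker lists of neutrophils and of mast cells were at 0 UMIs in T cells, the macrophage and dendritic list had 1 UMI on each day, and the epithelial list had 9 and 5.

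The comparison of day 14 with day 0 asks which T cell genes differed after DSS injury and recovery. Of 1884 genes, 52 (2.76%) were 2-fold or more higher at day 14 and 65 (3.45%) lower, the median log2 ratio was -0.03, and 1749 genes had intervals that include 1. With TMM scaling the split was 62 higher and 51 lower. Without the B-rich barcodes, 27 of the 52 and 43 of the 65 were still 2-fold apart with at least 20 UMIs. The interval excluded 1 for 30 of the higher and 33 of the lower genes.

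Among the 8 genes furthest on the higher side, Ctla2a, which encodes a cysteine protease inhibitor of activated T cells, had 41 UMIs in 8 cells at day 14 and 10 in 7 cells at day 0 (5.02-fold, 2.47 to 11.2). The cell described above held 18 of the 41, and without the highest cell of each day the ratio was 4.08. Btg2, an antiproliferative gene, was spread more evenly, with 54 UMIs in 26 cells at day 14 and 28 in 23 at day 0 (2.36-fold, 1.47 to 3.87; 2.33 without the B-rich barcodes). Tor1aip1 had 17 UMIs in 12 cells against 3 in 3 (6.94-fold, 2.01 to 37.0), and Lamb3 16 in 14 against 4 in 4 (4.90-fold, 1.58 to 20.1). Without the B-rich barcodes these ratios were 4.96 and 4.06. Crem had 20 UMIs against 5, of which 13 were in 1 cell. Cd74, Ly6d and Cd79b were also in this group at 2.65-fold, 4.20-fold and 4.90-fold, and without the B-rich barcodes their ratios were 0.615, 0.677 and 1.69.

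On the lower side, Cd7, a surface receptor gene of T and NK cells, was counted in 10 T cells at day 14 (11 UMIs) and 18 at day 0 (44 UMIs), for a ratio of 0.306 (0.143 to 0.602), and 0.346 without the B-rich barcodes. Pcif1, the cap methyltransferase gene, had 4 UMIs against 25 (0.196, 0.0496 to 0.567), and Maf1, a repressor of RNA polymerase III, 5 against 24 (0.255, 0.0760 to 0.682). Stk10, a lymphocyte kinase gene, was counted in 3 cells at day 14 and 17 at day 0, with 1 UMI in each (0.216, 0.0406 to 0.747). Selenop, Fam105a and Ankrd12 had ratios of 0.344, 0.318 and 0.318. Without the B-rich barcodes Fam105a and Ankrd12 were at 0.395 and 0.282. Selenop was then at 0.530 (0.216 to 1.19), no longer 2-fold apart and with an interval that includes 1. These genes had 9 or fewer UMIs at day 14 except Cd7. In kept cells of the same libraries Pcif1, Maf1 and Stk10 had ratios of 0.878, 0.892 and 0.759.

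Genes associated with interferon gamma had an interval of the day ratio that includes 1 in T cells, while kept cells had more at day 14. The list of 18 interferon-gamma associated genes was at 1237 CPM in day 14 T cells and 1105 CPM in day 0 T cells, for a ratio of 1.12 (0.915 to 1.37). In kept cells it was at 1217 and 708 CPM, for a ratio of 1.72 (1.67 to 1.77). The 2 intervals do not overlap, and at day 0 the T cell level was the higher one. Of the 6 list genes with at least 20 UMIs in T cells, none was 2-fold apart between days. Psme1, the proteasome activator gene that held 69 of 191 list UMIs in T cells at day 14 and 65 of 209 at day 0, had a ratio of 1.30 (0.913 to 1.85), against 1.45 (1.37 to 1.54) in kept cells. The GTPase gene Ifi47 had 123 CPM in T cells at day 14 and 127 at day 0, against 34.1 and 10.3 in kept cells. Gbp7, a guanylate-binding protein gene, had 51.8 and 63.5, against 18.2 and 5.44. The transcription factor gene Irf1 had a ratio of 1.14 (0.492 to 2.61) in T cells and 1.98 (1.75 to 2.24) in kept cells. For Psme1 and Irf1 the T cell interval includes the kept cell ratio, whereas those of Ifi47 (0.970, 0.502 to 1.85, against 3.33) and Gbp7 (0.816, 0.290 to 2.17, against 3.35) do not. Serpina3g, a protease inhibitor gene with 969 and 157 UMIs in kept cells, was at 0 in T cells. With 1 library per day, the difference between the 2 ratios was not tested over replicates.

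The list of 14 type I interferon genes was at 1095 CPM in day 14 T cells and 788 CPM in day 0 T cells, for a ratio of 1.39 (1.11 to 1.74), and 1.45 (1.14 to 1.84) without the B-rich barcodes. In kept cells the ratio was 1.23 (1.18 to 1.27). Of the 4 list genes with at least 20 UMIs in T cells, 1 was 2-fold or more higher, beside 2.76% of all 1884 genes tested. It was Ifi203, a DNA-binding PYHIN family gene, at 233 CPM at day 14 and 111 at day 0 (2.10, 1.19 to 3.79). Ifi27l2a, the most abundant of the list, was at 505 and 312 (1.62, 1.14 to 2.31), with up to 11 UMIs in 1 cell at day 14. Ifi209, of the same family as Ifi203, was at 84.2 and 153 (0.549, 0.262 to 1.09).

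Other lists had day ratios between 0.862 and 1.06 in T cells, apart from those with few UMIs. The 16 genes of the T cell receptor and CD3 complex stood at 7974 CPM at day 14 and 8965 at day 0 (0.889, 0.826 to 0.958), or 0.945 (0.875 to 1.02) without the B-rich barcodes, and none of the 16 was 2-fold apart. Immediate early and activation genes stood at 2144 and 2047 (1.05, 0.902 to 1.22), where kept cells had a ratio of 0.805 (0.794 to 0.816). Heat shock genes stood at 3187 and 3020 (1.06, 0.934 to 1.19), cell cycle genes at 816 and 947 (0.862, 0.681 to 1.09), and type 1 genes had 21 and 25 UMIs. The type 2 list had 23 UMIs at day 14 and 7 at day 0, of which 15 were the Areg counts of the 1 cell described above. Without Areg, 8 UMIs remained, against 7.

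Igha, the constant gene of IgA, the main antibody of the gut, was counted in 4 T cells at day 14 (4 UMIs) and 21 at day 0 (30 UMIs), for a ratio of levels of 0.163 (0.0418 to 0.463), and stood in kept cells at 3376 and 8585 CPM (0.393, 0.388 to 0.398). The other 9 genes of the plasma cell list had 21 UMIs in day 14 T cells and 24 in day 0 T cells (1.07, 0.567 to 2.01), among them Mzb1 with 4 and 1 and Jchain with 4 and 7. The part that free RNA of the droplets has in these T cell counts was not tested.

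**Figure D5:**
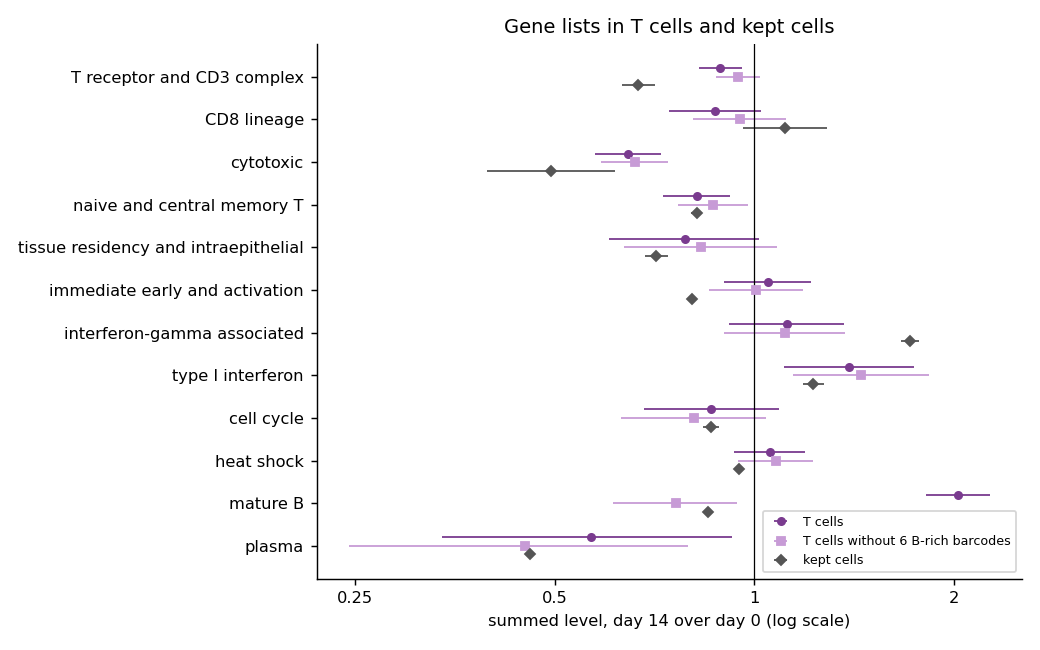
Summed level of each gene list at day 14 over day 0, with exact 95% intervals, on a log scale, for T cells (circles), T cells without the 6 B-rich barcodes (squares) and kept cells (diamonds). The interferon-gamma list lies at 1.12 in T cells and 1.72 in kept cells, and the mature B list at 2.03 in all T cells and 0.761 in those that are not B-rich.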

How the data were processed

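Raw UMI counts of 31053 genes per barcode were deposited by the authors. Per the file headers they come from Cell Ranger 3.0.1, and the submitters' processing notes name mm10 and Seurat 3.0. The sources used here state neither the annotation nor how alignment and cell calling were set. In the second deposited file of each sample, each value is the natural log of 1 + UMIs × 10000 / UMIs of the cell. Of 2394600 values checked against the counts, 0 differed by more than 0.001. These values served only to tell kept from removed barcodes, by a filter that is not stated. All 15 T cell genes are among their 16416 genes.

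UMIs were summed over the cells of a set and divided by the UMIs of all genes but the immunoglobulin and mitochondrial ones, per 1000000 (CPM); these were 154372 at day 14 and 189065 at day 0 in T cells and 11596323 and 8091798 in kept cells. Sums have exact Poisson, shares Clopper-Pearson and ratios exact conditional 95% intervals (SciPy 1.17.1), which cover counting error only. With 1 library per group no test was possible. A 2-fold difference among genes with at least 20 UMIs was called as a description of size. A gene at 0 was set to a floor of 3 counts. Symbols are those of the matrices; positions are from GENCODE M21. No doublets were removed and no doublet caller was run. Shares were recomputed with each cell thinned to 1000 UMIs. The scripts for ratios were tested on simulated data.

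The T cell rule, the gene lists and the thresholds were chosen with earlier results of these data known. By rule, the genes named were 8 per direction between days, ranked by the bound of the ratio nearest 1, and 15 over kept cells, ranked by the smaller lower bound (without predicted, ribosomal protein, mitochondrial and immunoglobulin genes), the 15 T cell genes, the markers, and of each list the most abundant member and up to 4 that differ most. The genes of the Ccl5-high comparison, of the 6 T cells without CD8, and the B cell genes set against kept cells were named after their values were seen. Some genes that meet these rules are not reported here.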

Additional observations from a re-analysis of the deposited data

Results flagged for a closer look

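Neutrophil genes (S100a8, S100a9, Retnlg, Csf3r, Mmp9, Lcn2 and Cxcr2) summed to 1780 UMIs in the removed barcodes that are not T cells at day 14, against 0 at day 0. They were flagged because these barcodes enter no comparison above and exceed the control level, and 2 of the 40 barcodes at day 14 had 10 or more such UMIs. In T cells the same genes were at 0 on both days, and in kept cells they had 409 UMIs at day 14 and 4 at day 0.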

How the results depend on the processing

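No paired analysis was possible because each group holds 1 library, and for the same reason no replicate could be left out. After thinning to 1000 UMIs, CD8-positive shares were 74.5% at day 14 and 75.4% at day 0, cytotoxic shares 12.8% and 21.1%, and the Ccl5-high share 6.38% at day 14. A limit of 4 cytotoxic UMIs gave 20.8% and 35.6%, and 1 UMI 83.1% at day 0. Genes higher and lower at day 14 and higher than in kept cells numbered 1994, 2336 and 1016 with no filter on low genes, 8, 5 and 103 with at least 50 UMIs, and 175, 260 and 388 at 1.5-fold. Adding the 6 kept cells with 5 or more T cell UMIs gave 112 lower genes and a Cd74 ratio of 0.775. The share with a CD8 transcript and no Cd4 was then 93.9% at day 14 and 85.9% at day 0. The share with Cd4 and no CD8 transcript was then 4.69% at day 0, so the absence of Cd4 holds for the removed barcodes only. Without the B-rich barcodes the ratios were 0.615 for Cd74, 0.677 for Ly6d and 0.761 for the mature B list, all below 1 instead of above it, and the split of genes was 38 higher and 70 lower. Without the highest cell of each day the type 2 list was at 1.04. The Ccl5 ratio as a mean of per-cell values was 0.284. Of 177 recomputed shares, counts and list ratios, 157 stayed within the interval of the reported value or, for counts, within 1.5 times of it; the Ccl5-high share and the lists without B-rich barcodes were alternatives added after seeing the data. Depth limits the T cell results: 48 and 59 cells leave most single genes under 20 UMIs, and 1 library per day leaves differences between days without replicate error.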
